A study of Mus musculus with 33 samples.

Results

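The genes that build and pattern the muscular wall of the gut were followed in cultured enteric neural crest cells (ENCCs), which migrate into the gut and form its neurons and glia, and in whole embryonic gut. A set of 39 mouse genes was listed in 3 classes: 18 contractile and smooth muscle genes, 18 genes of the mesenchyme, and 3 genes of the interstitial cells of Cajal. A gene was measured where the array annotation gave a probe set exactly 1 symbol, and its value was the mean of its probe sets. By that rule 38 of the 39 were measured, with 78 of the 34945 named probe sets and among 18193 genes in all. Etv1, a transcription factor of Cajal cells, was not measured, because its 3 probe sets each carry several symbols.

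The ENCCs came from C57BL/6 embryos at embryonic day 14.5 that carried Wnt1-Cre and a LoxP/R26-YFP reporter, so that YFP marks cells of the Wnt1-Cre lineage, and they were sorted for YFP. They were grown on fibronectin in DMEM-F12 with N2, B27, FGF and EGF; how long they were cultured is not stated. The sorted cells of each of 9 guts were split over a pair of wells, of which one received 50 ng/ml GDNF, the ligand of the receptor tyrosine kinase RET, and the other did not. The 9 GDNF-treated and 9 untreated RNAs were read on 13 and 12 Affymetrix arrays in 2 batches, with 7 RNAs read in both. Whole guts, from duodenum to anus, came from 8 wild-type C57BL/6 embryos of the same age without the transgenes, were not cultured, and were read only in batch 2. Transgene, sorting, culture and cell makeup therefore all differ between ENCCs and whole gut and cannot be told apart. The cell type entry in the labels of the whole guts names ENCCs, against their source name. Litters and any pooling of RNA are not described in the labels, so p-values measure the spread between these samples.

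In the gut wall, mesenchyme around the endoderm gives rise to smooth muscle, to Cajal cells and to fibroblasts. Smooth muscle differentiation is driven by serum response factor (Srf) and its coactivator myocardin (Myocd), which act on CArG boxes near contractile genes. Cajal cells pace the muscle and depend on the receptor Kit, whereas ENCCs form the neurons and glia that control it.

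Within every array the values are rank scores, between -4.084 and 4.084 around a middle of 0. They keep no level of a gene, so there are no fold changes and no comparison of levels between genes. A difference is given in score units. By the values rather than any label, 1 unit appears to be roughly a probe set's spread over the ENCC arrays. The size of a difference in one gene is therefore not on the same footing as that in another. In these bulk samples, fewer cells of a type and less RNA per cell cannot be told apart.

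Agreement between arrays was measured as the correlation of scores over probe sets. The scores keep no level of a gene, and whole guts share their differences from ENCCs. Correlations among whole guts and among ENCC arrays are therefore not like measures. They were 0.912 to 0.961 between the 28 pairs of whole guts, and 0.143 to 0.362 between the 2 arrays of an RNA read in both batches. The lowest belonged to the untreated well of gut 3, whose batch 2 array correlated better with the untreated well of gut 4 in batch 1 (0.184), and without gut 3 the counts of members called were 7 for GDNF, 24 for GDNF-treated and 22 for untreated ENCCs against whole gut. Genes of other cell types were set against whole gut as well. Of 15 measured neural crest, glial and neuronal genes, 13 were higher than in whole gut in GDNF-treated ENCCs (86.7%, against 16.0% of all genes). In untreated ENCCs 10 were higher (66.7%, against 9.01%), and none was lower in either. All 16 epithelial and all 12 endothelial genes were lower than in whole gut in both, against 15.9% and 11.7% of all genes. The part of the sort in these differences was not tested. Among the members themselves, 37 of 78 probe sets correlated above 0.5 between batches over the 7 RNAs, with a median of 0.477 against 0.370 for all probe sets, and 20 correlated below 0.

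RefSeq promoter windows (GRCm38.p6, 250 bases before to 50 after the gene start) were available for 27 of the 39 listed genes, 13 of them contractile. They were searched on both strands for the strict CArG box, the DNA element bound by Srf, because the contractile members are textbook Srf and Myocd targets. The box was found for 2 of these 27 genes, Myl9 and Srf itself (7.41%), and for 1.81% of all 27025 genes with a window. The bases before the gene start follow, with each CArG box in capitals, for Myl9 (chr2:156775214-156775463, plus strand, 1 box) and for Srf (chr17:46556163-46556412, minus strand, 2 boxes). Both genes were among the 9 of 18 contractile genes lower in untreated ENCCs than in whole gut (50.0%, against 11.7% of all genes). So were Mylk, Cnn1 and Smtn, whose windows hold no box. In GDNF-treated ENCCs Myl9 was lower and Srf did not pass. A relation of the boxes to these differences was not tested. A match describes the letters of the window, and windows without one may be served by elements elsewhere.
Myl9: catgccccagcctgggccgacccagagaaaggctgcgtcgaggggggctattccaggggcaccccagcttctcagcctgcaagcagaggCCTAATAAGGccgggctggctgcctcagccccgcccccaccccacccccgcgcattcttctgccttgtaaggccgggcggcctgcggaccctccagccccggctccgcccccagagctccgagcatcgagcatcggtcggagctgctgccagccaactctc
Srf: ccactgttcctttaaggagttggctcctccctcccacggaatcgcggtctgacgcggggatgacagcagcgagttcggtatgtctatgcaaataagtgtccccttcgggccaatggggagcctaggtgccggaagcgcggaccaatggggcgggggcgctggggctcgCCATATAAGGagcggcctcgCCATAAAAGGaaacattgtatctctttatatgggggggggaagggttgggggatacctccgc

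Against whole gut, more of the 38 members were lower than higher in both ENCC groups. In GDNF-treated ENCCs of batch 2, 26 members were lower (68.4%, against 15.9% of all genes) and 2 were higher (5.26%, against 16.0%) by limma at an adjusted p under 0.05. In untreated ENCCs of batch 2, 18 were lower (47.4%, against 11.7% of all genes) and 3 were higher (7.89%, against 9.01%). In 25 members every GDNF-treated array lay below every whole gut, as 17.1% of all genes did, and in 18 every untreated array did, against 15.2%. The median difference over the members was -1.32 for GDNF-treated ENCCs, where that over all genes was -0.015. For untreated ENCCs it was -1.08, where that over all genes was -0.011. Both comparisons use the same 8 whole guts, so their counts are not independent.

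With GDNF, 9 members fell (23.7%, against 13.2% of all genes) and 3 rose (7.89%, against 18.3%) in the paired comparison of the wells of 9 guts, and 26 did not pass. In 4 members, Osr1, Pdgfrb, Thy1 and Synpo2, the difference had 1 sign in all 9 guts (10.5%, against 17.8% of all genes). The median difference over the members was -0.256, and over all genes 0.005. The wells of these guts also enter the comparisons with whole gut.

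**Figure D1:**
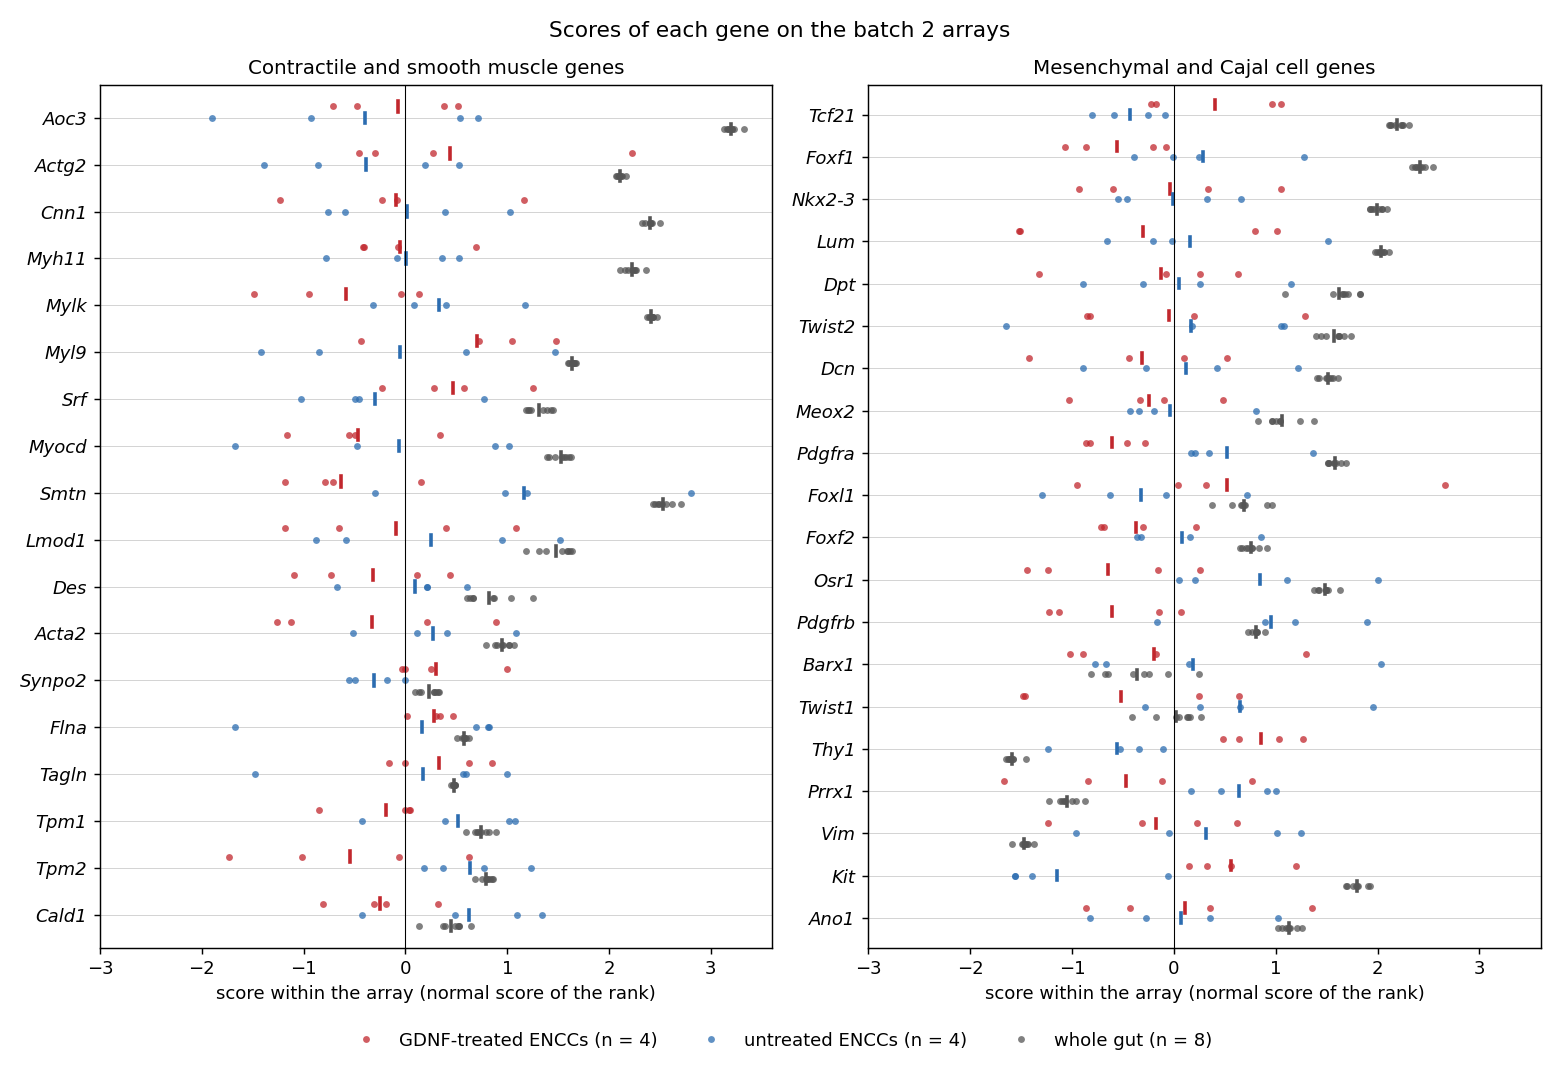
Scores of each gene on the batch 2 arrays, GDNF-treated ENCCs (red, n = 4), untreated ENCCs (blue, n = 4) and whole gut (grey, n = 8), with a short bar at each mean. The horizontal axis is the score within the array; whole guts lie close together and, for genes such as Aoc3, Actg2, Myh11, Foxf1 and Tcf21, to the right of all untreated ENCC arrays, whereas for Thy1, Prrx1 and Vim they lie to the left of them.

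Among the 18 contractile genes, 12 were lower in GDNF-treated ENCCs than in whole gut (66.7%, against 15.9% of all genes). In untreated ENCCs 9 were lower (50.0%, against 11.7%). In either group 0 were higher, against 16.0% and 9.01% of all genes. The list mean ran from -0.385 to 0.147 on the GDNF-treated arrays and from -0.261 to 0.650 on the untreated arrays, against 1.391 to 1.485 in whole guts, so the groups did not overlap. Late markers of differentiated muscle were among the lower ones in both groups.

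Actg2, the actin isoform of enteric smooth muscle, had scores of -0.30, 2.23, 0.27 and -0.45 in GDNF-treated ENCCs of guts 2, 3, 8 and 9 and of 0.53, 0.19, -0.86 and -1.39 in their untreated wells, against 2.07 to 2.17 (median 2.10) in whole guts. One GDNF-treated array, gut 3, lay above the whole guts, and the other three lay below them with all untreated arrays. The difference from whole gut was -1.67 ± 0.35 (SE), adjusted p = 0.00225, for GDNF-treated and -2.49 ± 0.30 (SE), adjusted p = 8.76e-05, for untreated ENCCs. Myh11, the smooth muscle myosin heavy chain, scored -0.073, -0.42, 0.69 and -0.40 with GDNF and 0.35, 0.53, -0.080 and -0.78 without it, against 2.10 to 2.36 (median 2.23) in whole guts. No ENCC array reached a whole gut, and the differences were -2.27 ± 0.25 (SE), adjusted p = 1.96e-05, with GDNF and -2.22 ± 0.29 (SE), adjusted p = 0.000163, without. Mylk, the kinase that starts contraction by phosphorylating the myosin light chain, stood at -1.48, -0.94, -0.039 and 0.14 with GDNF and -0.32, 0.40, 1.17 and 0.081 without it, against 2.37 to 2.47 (median 2.42) in whole guts. Its differences were -2.998 ± 0.26 (SE), adjusted p = 2.66e-06, with GDNF and -2.08 ± 0.26 (SE), adjusted p = 0.000111, without.

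Cnn1, calponin, an actin-binding regulator of contraction, differed from whole gut by -2.498 ± 0.31 (SE), adjusted p = 4.09e-05, in GDNF-treated and by -2.39 ± 0.30 (SE), adjusted p = 0.000131, in untreated ENCCs, again with no overlap. Aoc3, a cell surface amine oxidase abundant in smooth muscle and adipocytes, was lower in both groups with no overlap. Its scores were 0.52, -0.71, 0.38 and -0.48 with GDNF and -0.93, 0.71, 0.53 and -1.90 without it, against 3.13 to 3.32 (median 3.19) in whole guts, with differences of -3.27 with GDNF and -3.60 without. Its 1 probe set correlated at -0.864 between batches over the 7 ENCC RNAs. Smtn, smoothelin, of contractile smooth muscle, was lower in both groups, at -3.17 ± 0.28 (SE), adjusted p = 3.17e-06, with GDNF and -1.36 ± 0.41 (SE), adjusted p = 0.0302, without, and the untreated call ended without gut 3, 8 or 9 (adjusted p = 0.0607 to 0.223) and with ranks as percentiles (0.0866). The untreated well of gut 2 scored 2.81, above every whole gut, and the highest GDNF-treated array scored 0.152.

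Of the 2 regulators, Myocd was lower in both groups and Srf in untreated ENCCs. Myocd scored 0.34, -0.55, -1.16 and -0.49 with GDNF and -1.68, 0.88, 1.02 and -0.47 without it, against 1.40 to 1.63 (median 1.55) in whole guts, and differed by -1.99 ± 0.28 (SE), adjusted p = 0.000123, with GDNF and -1.59 ± 0.41 (SE), adjusted p = 0.0131, without. Its 2 probe sets disagreed in size: in untreated ENCCs one differed from whole gut by -2.89 and the other by -0.279. The untreated call ended without gut 2 (adjusted p = 0.117) or gut 9 (0.0799), and with ranks as percentiles (0.0687). Srf scored -0.23, 1.25, 0.28 and 0.57 with GDNF and -0.46, -1.02, 0.77 and -0.499 without it, against 1.19 to 1.45 (median 1.29). It was lower in untreated ENCCs, at -1.61 ± 0.35 (SE), adjusted p = 0.0051, and in GDNF-treated ENCCs the difference was -0.84 ± 0.31 (SE), adjusted p = 0.0534, which did not pass. The GDNF-treated difference of Srf passed with ranks as percentiles (adjusted p = 0.0256) and without gut 3 (0.0338). Both Srf probe sets correlated below 0 between batches. Myl9, the regulatory myosin light chain, was lower in both, at -0.94 ± 0.26 (SE), adjusted p = 0.0147, with GDNF and -1.69 ± 0.38 (SE), adjusted p = 0.00597, without. The call for Myl9 ended without gut 8 and with a spread for each gene and group in GDNF-treated (adjusted p = 0.0902 and 0.106) and without gut 9 in untreated ENCCs (0.0505).

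Other contractile genes did not pass against whole gut. Tagln (transgelin, an actin-binding protein) and Flna (filamin A, an actin cross-linker) passed in neither comparison, nor did Cald1 (caldesmon), Des (desmin, the muscle intermediate filament) and Synpo2 (synaptopodin 2, an actin-bundling protein). Acta2, smooth muscle alpha actin, scored -1.26, -1.13, 0.21 and 0.89 with GDNF and 0.11, 0.41, 1.08 and -0.52 without it, against 0.79 to 1.07 (median 0.95) in whole guts. It was lower than whole gut in GDNF-treated ENCCs (-1.27, SE 0.35, adjusted p = 0.0127), and the untreated difference of -0.68 did not pass (adjusted p = 0.161). Tpm1 and Tpm2, tropomyosins that lie along actin filaments, and Lmod1, leiomodin, which nucleates actin in smooth muscle, followed the same split. With GDNF their differences were -0.93, -1.34 and -1.57, each past the threshold, and without GDNF -0.23, -0.16 and -1.23, none past it. The untreated difference did pass for Tpm2 with its most reproducible probe set (-0.850, adjusted p = 0.0371). For Lmod1 it passed with ranks as percentiles (adjusted p = 0.0497). The calls for Acta2, Tpm1 and Tpm2 in GDNF-treated ENCCs ended with a spread estimated for each gene and group (adjusted p = 0.0676, 0.0541 and 0.057), an alternative chosen after seeing the data. Without gut 2 the calls for Acta2 (adjusted p = 0.0848) and Lmod1 (0.096) ended, and without gut 3 those for Acta2 (0.0864), Lmod1 (0.0823) and Tpm1 (0.102). The difference between the ENCC groups themselves is tested in the paired wells.

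In the paired wells, guts read in both batches entered with their mean. There 4 contractile genes fell with GDNF (22.2%, against 13.2% of all genes), 1 rose (5.56%, against 18.3%) and 13 did not pass. The list median was -0.373. The 13 averaged -0.99 to 0.68. Tpm2 scored -1.73 to 0.72 (median -0.89) in the 9 GDNF-treated wells and -0.87 to 1.60 (median 0.48) in the untreated wells. The paired difference ran from -2.497 to 0.70 (median -1.05) and averaged -1.04 ± 1.11 (SD, n = 9), adjusted p = 0.0279, lower in 7 of 9 guts. Tpm1 fell by 0.744 ± 0.691 (SD, n = 9), adjusted p = 0.0337, and Cald1 by 0.722 ± 0.701, adjusted p = 0.0401, lower in 7 and 8 of 9 guts. These tropomyosin and caldesmon calls ended in batch 1 alone (8 pairs, adjusted p = 0.0971 to 0.116) and without gut 2, 3, 6 or 8; those for Tpm1 and Cald1 also ended without gut 5, and those for Tpm2 and Cald1 without gut 7. Over these omissions the adjusted p lay between 0.0519 and 0.103. With its most reproducible probe set Tpm2 had -0.931 (adjusted p = 0.0715).

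Flna scored -1.24 to 0.71 (median -0.24) in GDNF-treated wells and -0.61 to 1.29 (median 0.74) in untreated wells, and the paired difference ran from -1.60 to 0.099 (median -0.97). It averaged -0.84 ± 0.59 (SD, n = 9), adjusted p = 0.0131, lower in 8 of 9 guts. The difference was -1.26 in the 8 pairs of batch 1 and 0.118 in the 4 pairs of batch 2. In batch 2 the untreated well of gut 3 scored -1.67 against 0.693 to 0.824 in the other untreated wells. The 1 probe set of Flna correlated at -0.126 between batches over the ENCC RNAs read in both. Synpo2 was the contractile gene that rose: its scores were -0.24 to 1.12 (median 0.31) with GDNF and -0.91 to 0.073 (median -0.49) without it, and the paired difference ran from 0.15 to 1.53 (median 0.73). It averaged 0.75 ± 0.51 (SD, n = 9), adjusted p = 0.0168, higher in 9 of 9 guts. The rise came from 2 of its 4 probe sets, at 1.60 and 1.34, where the other two moved by 0.236 and -0.165.

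Several contractile genes that were lower than whole gut in both ENCC groups did not pass with GDNF. Actg2 averaged a paired difference of 0.49 ± 1.60 (SD, n = 9), Myh11 of -0.42 ± 0.87, Mylk of -0.32 ± 1.32, and Cnn1 of 0.46 ± 1.12, with adjusted p = 0.443, 0.292, 0.566 and 0.327. Gut 1 went against the other guts. There, the contractile list mean was 1.254 higher with GDNF and 15 of 18 genes were higher. Gut 9 had a mean of 0.278 with 13 of 18 higher, and in the other 7 guts the mean ran from -1.062 to -0.308. Without gut 1, Mylk averaged -0.723 (adjusted p = 0.0357) and Smtn -1.479 (adjusted p = 0.00421), and Acta2 -0.974 (adjusted p = 0.0336).

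A technical value was also read in each gut, the difference of the 18 hybridisation control probe sets, spike-ins added at hybridisation. It was -1.866 in gut 1 and -2.177 in gut 9, and -1.549 to 0.651 in the other 7. The -1.549 belonged to gut 4, where the contractile list mean was -0.308. Estimated at a control difference of 0, an alternative added after the data were seen, 7 contractile genes were lower and 0 higher, with Acta2 at -1.296 (adjusted p = 0.0176), Tagln at -0.972 (0.039) and Des at -1.141 (0.0245), and with Synpo2 no longer past the threshold (0.619, adjusted p = 0.122). With the same covariate centred, as planned, 5 were lower and 1 higher. Whether the controls' differences have a part in the result of gut 1 was not tested.

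**Figure D2:**
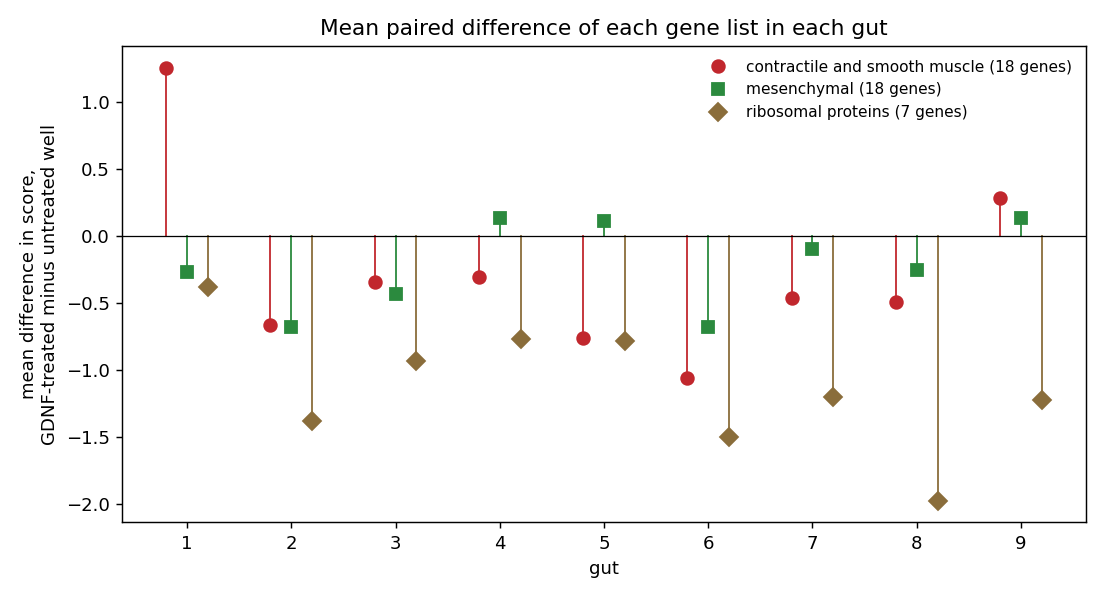
Mean difference in score, GDNF-treated minus untreated well, for each of the 9 guts and 3 gene lists: contractile (red circles, 18 genes), mesenchymal (green squares, 18 genes) and ribosomal protein genes (brown diamonds, 7 genes). The contractile mean is above 0 in guts 1 and 9 and below 0 in the other 7, and the ribosomal mean is below 0 in all 9 guts, from -1.975 to -0.380.

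Among the 18 mesenchymal genes, 12 were lower in GDNF-treated ENCCs than in whole gut (66.7%, against 15.9% of all genes). Higher there were 2 (11.1%, against 16.0%). In untreated ENCCs 7 were lower (38.9%, against 11.7%) and 3 higher (16.7%, against 9.01%). The patterning factors Foxf1, Tcf21 and Nkx2-3 were among the genes lower in both groups. Other factors of the list were not: Foxf2, Osr1 and Meox2 were lower only in GDNF-treated ENCCs, and Foxl1, Barx1 and Twist1 passed in neither group. Prrx1 was higher in untreated ENCCs. Foxf1, a forkhead factor that hedgehog from the endoderm induces in gut mesenchyme, scored -0.87, -1.07, -0.21 and -0.079 with GDNF and -0.39, 0.24, -0.009 and 1.28 without it, against 2.33 to 2.54 (median 2.41) in whole guts. No ENCC array reached a whole gut, and the differences were -2.97 ± 0.24 (SE), adjusted p = 1.82e-06, with GDNF and -2.14 ± 0.29 (SE), adjusted p = 0.000218, without. Both Foxf1 probe sets correlated below 0 between batches over the ENCC RNAs read in both (-0.007 and -0.416). Tcf21, a basic helix-loop-helix factor of visceral mesenchyme, scored 1.06, -0.17, 0.97 and -0.23 in GDNF-treated and -0.26, -0.087, -0.80 and -0.59 in untreated ENCCs, against 2.11 to 2.31 (median 2.20) in whole guts, with differences of -1.79 ± 0.27 (SE), adjusted p = 0.000223, with GDNF and -2.63 ± 0.26 (SE), adjusted p = 2.58e-05, without.

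Nkx2-3, a homeobox factor of midgut and hindgut mesenchyme, was lower in both groups, at -2.03 ± 0.30 (SE), adjusted p = 0.000178, with GDNF and -2.001 ± 0.28 (SE), adjusted p = 0.000222, without, also with no overlap. The matrix proteoglycans lumican and decorin were lower in both groups. Lum differed by -2.34 ± 0.39 (SE), adjusted p = 0.000434, with GDNF and -1.88 ± 0.31 (SE), adjusted p = 0.000849, without it. Dcn differed by -1.82 ± 0.29 (SE), adjusted p = 0.000346, with GDNF and -1.39 ± 0.33 (SE), adjusted p = 0.00798, without it. The untreated call for Dcn ended without gut 2 (adjusted p = 0.0599) or gut 9 (0.072). Dpt, dermatopontin, another matrix protein, was lower with GDNF (-1.75, SE 0.52, adjusted p = 0.0198), and its untreated difference of -1.58 did not pass (adjusted p = 0.063). That untreated difference passed without gut 3 (adjusted p = 0.0216), with ranks as percentiles (0.0227) and with a spread for each gene and group (0.0124). Twist2, a basic helix-loop-helix factor, differed by -1.62 with GDNF and -1.41 without it, both past the threshold, and the untreated call ended without any 1 of the 4 guts (adjusted p = 0.0521 to 0.273) and with the most reproducible probe set (0.0511). Meox2, a homeobox factor, passed with GDNF at -1.30 and not without it at -1.10, though the untreated difference passed without gut 3 (adjusted p = 0.0283). With GDNF, the call for Meox2 ended without gut 2, 8 or 9 (adjusted p = 0.0661 to 0.148) and with its most reproducible probe set (0.111), and that for Dpt without gut 2, 3 or 8 (0.0512 to 0.121). Foxl1, a forkhead factor of subepithelial cells, and Barx1, a homeobox factor of stomach mesenchyme, did not pass in any comparison. Barx1 scored -0.814 to 0.244 in whole guts, which exclude the stomach.

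The 2 receptors for platelet-derived growth factor are described in turn. Pdgfra, of fibroblasts and of the PDGFRA+ cells of the muscle layer, scored -0.46, -0.28, -0.86 and -0.83 with GDNF and 0.21, 1.36, 0.17 and 0.34 without it, against 1.51 to 1.69 (median 1.58) in whole guts. All 4 GDNF-treated arrays lay below all 4 untreated ones and all ENCC arrays below the whole guts, with differences of -2.19 ± 0.22 (SE), adjusted p = 7.9e-06, with GDNF and -1.06 ± 0.28 (SE), adjusted p = 0.0148, without. The untreated call ended without gut 2, 8 or 9 (adjusted p = 0.078 to 0.0962), with the most reproducible probe set (-0.757, adjusted p = 0.321) and with a spread for each gene and group (0.0637). Over the 9 paired wells Pdgfra averaged -0.12 ± 0.71 (SD, n = 9), adjusted p = 0.758, with 0.21 in batch 1 and -1.13 in batch 2.

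Pdgfrb, the receptor of pericytes and other mural cells, scored -1.23, -1.13, -0.15 and 0.074 in batch 2 with GDNF and 1.19, -0.17, 1.89 and 0.89 without it, against 0.73 to 0.90 (median 0.81) in whole guts. In untreated ENCCs it did not differ past the threshold (0.15, SE 0.30, adjusted p = 0.825), and in GDNF-treated ENCCs it was lower (-1.41, SE 0.25, adjusted p = 0.000634). Over all 9 guts, Pdgfrb scored -1.29 to 0.15 (median -0.83) in GDNF-treated and -0.60 to 1.65 (median 0.81) in untreated wells. The paired difference was below 0 in 9 of 9 guts, from -2.42 to -0.17 (median -1.499), and averaged -1.35 ± 0.71 (SD, n = 9), adjusted p = 0.00112. It was -1.28 in batch 1 and -1.56 in batch 2, and its 2 probe sets gave -1.30 and -1.40.

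Osr1, a zinc finger factor of lateral plate and intermediate mesoderm and of fibroblast progenitors, fell with GDNF in every gut. Its scores were -1.67 to 0.22 (median -1.05) in the GDNF-treated wells, and 0.036 to 1.58 (median 0.74) in the untreated wells, which all lay above 0. The paired difference was below 0 in 9 of 9 guts, from -3.23 to -0.52 (median -1.61), and averaged -1.76 ± 0.82 (SD, n = 9), adjusted p = 0.00032, with -1.72 in batch 1 and -1.49 in batch 2. Against whole gut it was lower with GDNF (-2.13, SE 0.30, adjusted p = 0.000122), and the untreated difference of -0.64 did not pass (adjusted p = 0.223). Twist1, a basic helix-loop-helix factor of neural crest mesenchyme and of epithelial to mesenchymal transition, scored -1.72 to 0.502 (median -0.88) with GDNF and -1.07 to 1.63 (median 0.25) without it. It fell in 8 of 9 guts, by 1.08 ± 0.773 (SD, n = 9), adjusted p = 0.00625, and its differences from whole gut, -0.54 with GDNF and 0.62 without it, did not pass.

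Prrx1, Vim and Thy1 were the 3 mesenchymal genes called higher in untreated ENCCs than in whole gut, where 7 were called lower and 8 did not pass. Prrx1, a homeobox factor of limb and craniofacial mesenchyme, scored 1.001, 0.17, 0.91 and 0.46 in untreated ENCCs, against -1.23 to -0.87 (median -1.07) in whole guts, a difference of 1.69 ± 0.31 (SE), adjusted p = 0.00175. With GDNF its scores were -0.84, -1.67, -0.12 and 0.76, 3 of them above all whole guts, and the difference of 0.59 did not pass (adjusted p = 0.277). In the paired wells Prrx1 fell by 0.873 ± 0.799 (SD, n = 9), adjusted p = 0.0226, in 7 of 9 guts. This call ended in an unpaired fit over all ENCC arrays (0.0849), in batch 1 alone (0.0554) and without gut 2, 3 or 6 (0.0562 to 0.0595). Vim, vimentin, the intermediate filament of mesenchymal cells and also of neural crest and glia, scored -1.24, -0.31, 0.62 and 0.22 with GDNF and -0.045, -0.96, 1.24 and 1.01 without it, against -1.59 to -1.37 (median -1.46) in whole guts. The difference was 1.29 ± 0.28 (SE), adjusted p = 0.0032, with GDNF and 1.78 ± 0.34 (SE), adjusted p = 0.00216, without. With GDNF Vim fell by 0.811 ± 0.679 (SD, n = 9), adjusted p = 0.0212, in 8 of 9 guts. That call ended in the same unpaired fit (adjusted p = 0.111) and at a control difference of 0 (0.269).

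Thy1, a glycoprotein on the surface of fibroblasts and also of neurons, was the mesenchymal gene that rose with GDNF. It scored -1.48 to 1.75 (median 0.85) in the GDNF-treated wells and -2.17 to -0.14 (median -0.52) in the untreated wells. The paired difference was above 0 in 9 of 9 guts, from 0.61 to 2.28 (median 1.51), and averaged 1.46 ± 0.61 (SD, n = 9), adjusted p = 0.000411, with 1.55 in batch 1 and 1.41 in batch 2. Whole guts scored -1.65 to -1.45 (median -1.60), below every ENCC array of batch 2, with differences of 2.44 ± 0.22 (SE), adjusted p = 3.61e-06, with GDNF and 1.03 ± 0.26 (SE), adjusted p = 0.0128, without. The untreated call ended with a spread for each gene and group (adjusted p = 0.0665) and without gut 2, 8 or 9 (0.0587 to 0.0921). Of the 15 neural crest, glial and neuronal genes, 6 were higher with GDNF in the same wells (40.0%, against 18.3% of all genes), 1 was lower and 8 did not pass. Among the higher were Elavl3, an RNA-binding protein of neurons, at 2.04 ± 0.204 (SE), adjusted p = 6.45e-05, and Tubb3, neuronal tubulin, at 1.80 ± 0.218 (SE), adjusted p = 7.67e-05. The lower one was Cdh19, a cadherin of Schwann cell precursors, at -0.911 ± 0.239 (SE), adjusted p = 0.00989. The part of neurons in the values of Thy1 was not tested.

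**Figure D3:**
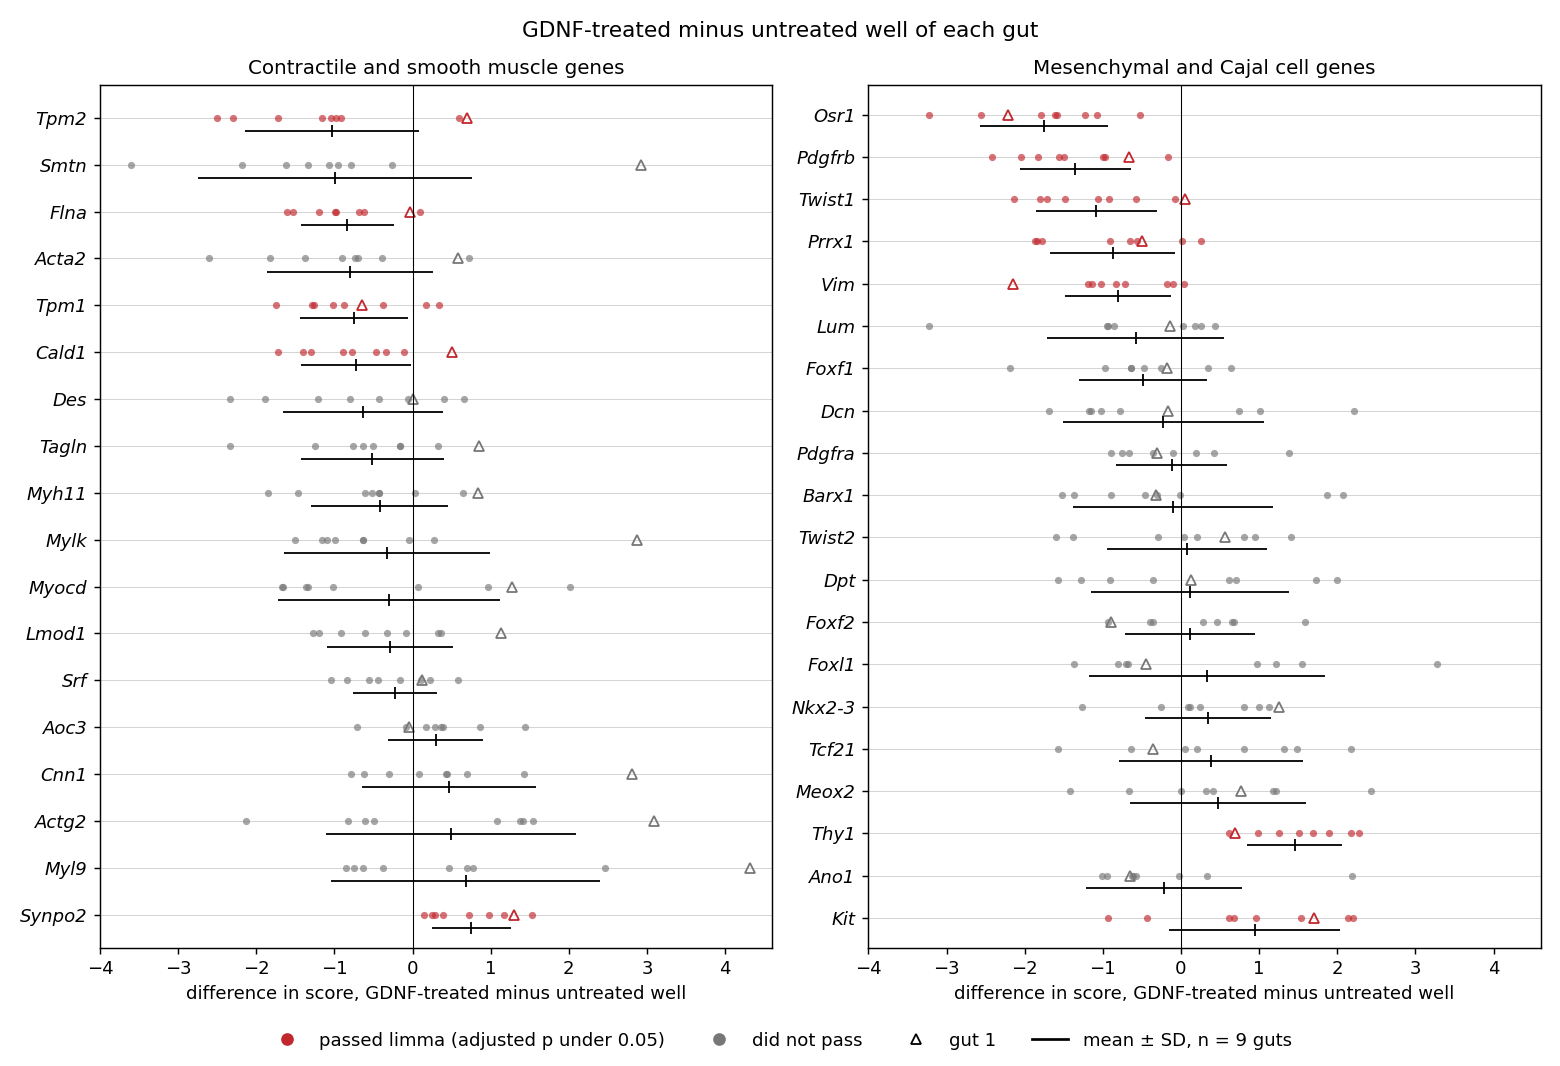
Difference in score, GDNF-treated minus untreated well, of each gene in each of 9 guts, with the mean ± SD under the points; red genes passed limma at an adjusted p under 0.05, and the open triangle is gut 1. All 9 points lie left of 0 for Osr1 and Pdgfrb and right of 0 for Thy1 and Synpo2, and gut 1 lies far to the right for Smtn, Mylk, Cnn1, Actg2 and Myl9.

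Over the mesenchymal list 5 genes fell with GDNF (27.8%, against 13.2% of all genes) and 1 rose (5.56%, against 18.3%). The other 12 did not pass, with averages of -0.58 to 0.47. The list median was -0.113, and it differed in sign between batches, at 0.152 in batch 1 and -0.443 in batch 2, whereas each of the 6 genes that passed had the same sign in both. The contractile median was -0.572 and -0.226 in the 2 batches, and 4 of its 5 called genes kept their sign, Flna being the other.

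Of the Cajal cell genes, Kit, the receptor for stem cell factor, was lower than whole gut in both groups. It scored 0.14, 0.56, 0.33 and 1.20 with GDNF and -1.39, -0.054, -1.56 and -1.56 without it, against 1.69 to 1.93 (median 1.79) in whole guts, so that all GDNF-treated arrays of batch 2 lay above all untreated ones and below all whole guts. The differences from whole gut were -1.24 ± 0.26 (SE), adjusted p = 0.00228, with GDNF and -2.94 ± 0.32 (SE), adjusted p = 4.42e-05, without. In the paired wells Kit scored -0.80 to 1.03 (median 0.56) with GDNF and -1.39 to 0.13 (median -0.42) without it. It rose by 0.942 ± 1.09 (SD, n = 9), adjusted p = 0.0409, higher in 7 of 9 guts, with 0.65 in batch 1 and 1.70 in batch 2. The rise ended in batch 1 alone (adjusted p = 0.22), with the more reproducible probe set (0.0947), at a control difference of 0 (0.682, adjusted p = 0.25), on the percentile scale (0.0528) and without gut 1, 2, 3, 6, 7, 8 or 9 (0.0587 to 0.101).

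Ano1, the calcium-activated chloride channel that generates slow waves in Cajal cells, was lower than whole gut in both groups, at -1.02 ± 0.32 (SE), adjusted p = 0.0264, with GDNF and -1.06 ± 0.32 (SE), adjusted p = 0.0283, without. One GDNF-treated array, gut 2 at 1.36, lay above the whole guts, which scored 1.03 to 1.26 (median 1.12). In the paired wells it averaged -0.21 ± 0.99 (SD, n = 9), adjusted p = 0.648. The Ano1 calls ended with a spread for each gene and group (adjusted p = 0.11 with GDNF and 0.0744 without), in untreated ENCCs with the more reproducible probe set (-0.503, adjusted p = 0.36), without gut 8 or 9 in either group (0.131 to 0.201), and with GDNF also without gut 3 (0.0553).

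**Figure D4:**
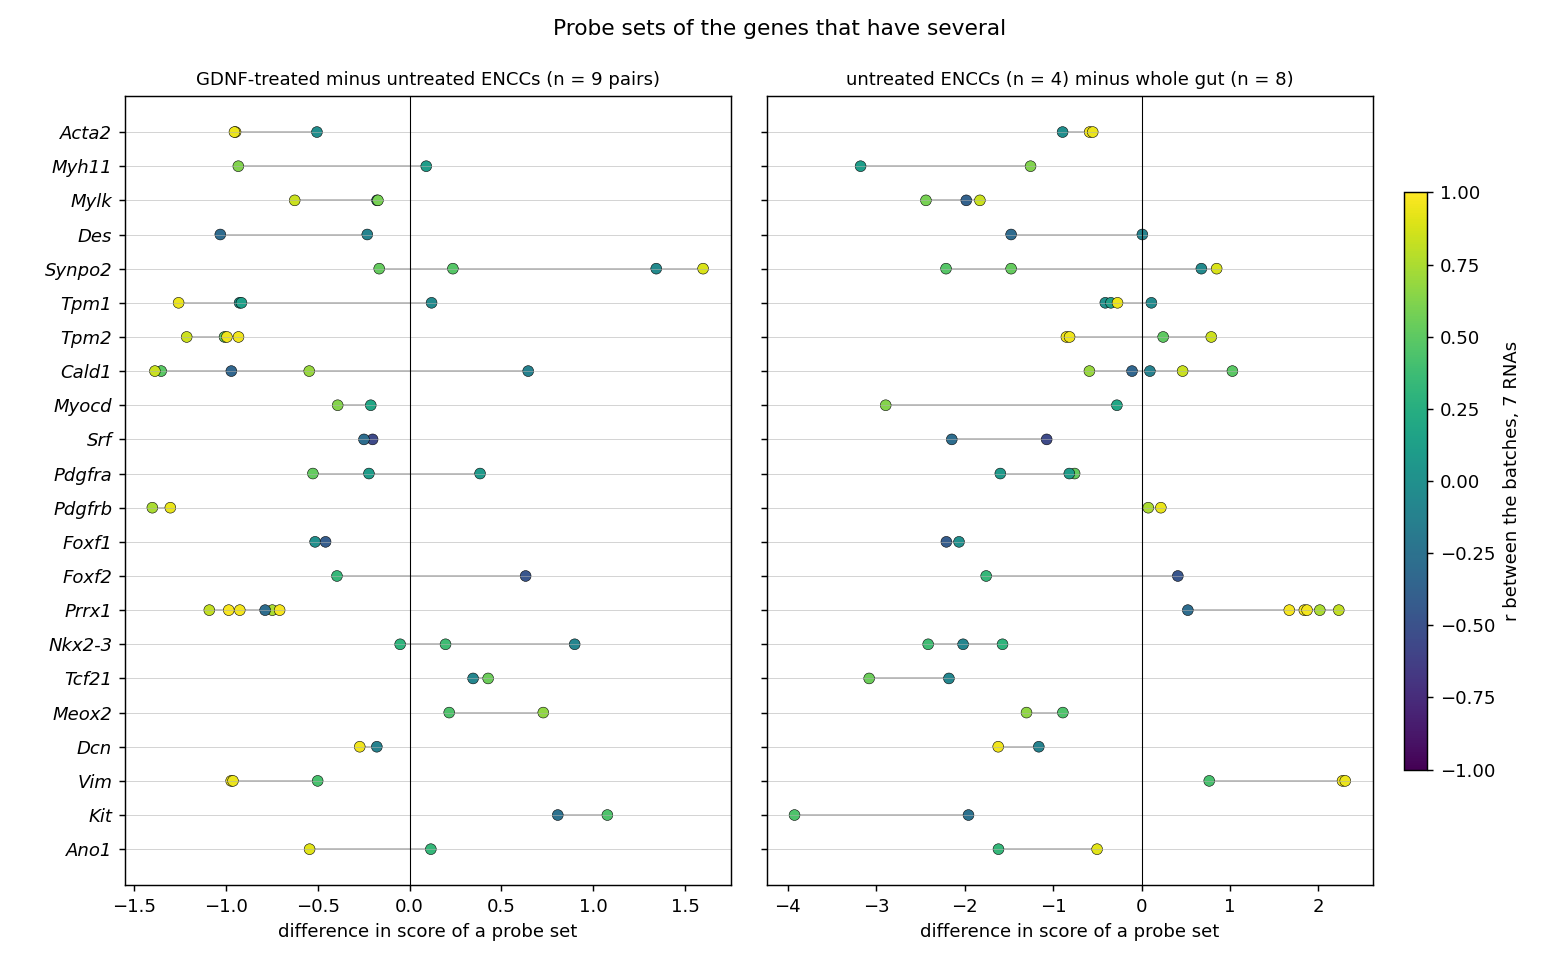
Differences in score of the single probe sets of the genes that have several, GDNF-treated minus untreated ENCCs (left, n = 9 pairs) and untreated ENCCs minus whole gut (right, n = 4 and 8), coloured by the correlation between batches over 7 RNAs. The probe sets of Pdgfrb, Prrx1, Vim and Kit lie on 1 side of 0 in both panels, whereas those of Synpo2 and Cald1 lie on both sides.

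Probe sets of a gene could differ in sign. Against whole gut, in untreated ENCCs, 2 of the sets of Synpo2 gave -2.21 and -1.48 and the other two 0.676 and 0.849, so its mean lies between sets that differ in sign. The set that correlated best between batches, at 0.887, was higher than whole gut by 2.38 with GDNF and by 0.849 without it. For Myh11, the more reproducible set differed by -0.932 with GDNF (adjusted p = 0.0208 with that set in place of the mean) and the other by 0.091. For Foxf2, a forkhead factor of gut mesenchyme, 1 set differed from whole gut by -1.76 in untreated ENCCs and the other by 0.410. The mean passed with GDNF (-1.13, SE 0.26, adjusted p = 0.00399) and not without it (-0.67, SE 0.30, adjusted p = 0.143). Untreated ENCCs did pass for Foxf2 without gut 3 (adjusted p = 0.0205) and with the more reproducible set, that at -1.76, in place of the mean (0.000794). The 6 sets of Prrx1 and the 3 of Vim all lay above whole gut in untreated ENCCs, and their differences with GDNF all lay below 0, from -1.09 to -0.50.

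Related genes outside the list were divided too. Of 37 other contractile genes, 12 were lower (32.4%, against 13.2% of all genes) and 3 higher (8.11%, against 18.3%) with GDNF than without it. Nexn (nexilin, an actin-binding protein) at -1.42 and Tpm4, a tropomyosin, at -1.29 were among the lower, and Acta1 (skeletal muscle actin) at 1.501 and Ldb3 (a Z-disc protein) at 1.15 among the higher. Against whole gut, 13 were lower (35.1%, against 15.9%) and 2 higher (5.41%, against 16.0%) with GDNF. Without it 11 were lower (29.7%, against 11.7%) and 2 higher (5.41%, against 9.01%). Ppp1r14a, an inhibitor of myosin phosphatase, differed from whole gut by -3.21 with GDNF, at a mean of -0.634 ± 0.510 (SD, n = 4) against 2.576 ± 0.075 (SD, n = 8). Cnn3, a calponin found outside muscle, lay 2.16 above it in untreated ENCCs.

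Of 29 other mesenchymal genes, 8 were lower (27.6%, against 13.2% of all genes) and 3 higher (10.3%, against 18.3%) with GDNF. Snai2, a zinc finger factor of neural crest delamination, fell by 1.63 ± 0.230 (SE), adjusted p = 0.000182, and Mfap4, a microfibril protein, by 1.44 ± 0.349 (SE), adjusted p = 0.00624. The higher ones included Ebf1 and Ebf3, helix-loop-helix factors that also act in neurons, at 1.31 and 1.04. Against whole gut, 11 were lower (37.9%, against 15.9%) and 4 higher (13.8%, against 16.0%) with GDNF. Without it 7 were lower (24.1%, against 11.7%) and 5 higher (17.2%, against 9.01%). Postn, periostin, a matrix protein, differed from whole gut by 2.28 with GDNF and 3.02 without it, and Hlx, a homeobox factor of gut mesenchyme, by -2.84 with GDNF and -2.35 without it. Of 9 other genes of Cajal and PDGFRA+ cells, 2 rose with GDNF (22.2%, against 18.3% of all genes) and 1 fell (11.1%, against 13.2%). Cacna1h (a calcium channel) rose by 1.43 and Gja1 (a gap junction protein) by 1.24, and Thbs4 (a matrix thrombospondin) fell, at -1.17. Against whole gut, 1 of these 9 genes was lower (11.1%, against 15.9%) and 1 higher (11.1%, against 16.0%) with GDNF. Without it 1 was lower (11.1%, against 11.7%) and 0 were higher, against 9.01%. Their shares of lower genes thus lay near those of all genes, unlike Kit and Ano1, which were both lower in both groups.

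The other lists differed in what they did with GDNF. Of 7 measured ribosomal protein genes, 6 were lower with GDNF (85.7%, against 13.2% of all genes), with a median of -1.248, and the list mean was -1.197 to 0.385 in GDNF-treated wells and 0.431 to 1.321 in untreated wells, which did not overlap. The cell type lists stood near or below the shares of all genes called, 13.2% lower and 18.3% higher. Leukocyte genes had 2 of 12 lower (16.7%) and 0 higher, mesothelial genes 1 lower and 1 higher of 9 (11.1% each), endothelial genes 1 higher of 12 (8.33%) and 0 lower, and 0 of 16 epithelial genes passed. Against whole gut, 9 of 12 leukocyte genes were lower in both ENCC groups, with 1 higher in untreated ENCCs, and 8 and 7 of 9 mesothelial genes were lower with and without GDNF. On the arrays of batch 2 the endothelial list mean was -0.414 to 0.368 with GDNF and -0.841 to 0.512 without it, against 1.782 to 1.879 in whole guts. The epithelial list mean was -0.157 to 0.414 with GDNF and -0.607 to 0.589 without it, against 2.504 to 2.613 in whole guts. The part of these cell types in the differences of the members from whole gut was not tested.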

How the data were processed

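RNA of ENCCs and whole guts was read on Affymetrix arrays. The submitters' processing notes name RMA, without a version. The deposited values are scores: the 45101 sorted values of each array equal normal quantiles of their ranks within 5e-06. By the values, each probe set appears to have been scaled on the 7 RNAs read in both batches before ranking. No label states this scaling, and it was not tested. The design assumed log2 values, and no fold or filter on dim probe sets was possible with scores. Of all probe sets, 34958 had 1 symbol, 932 several and 9211 none in the platform annotation, and 34945 remained without controls.

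GDNF was tested with limma 3.58.1 (R 4.3.3) on the differences between the wells of each gut, paired through the labels' treatment protocol, within a batch and averaged for guts 3, 8 and 9. The treated batch 1 array of gut 2 has no untreated partner in its batch and was not used in pairs. ENCCs of batch 2 were tested against whole guts with 1 array weight per group (statmod 1.5.0). P-values were adjusted by Benjamini-Hochberg over 18193 genes at 0.05. Simulated differences of 2 units were recovered in 98% of genes for GDNF, and in 67% and 46% for GDNF-treated and untreated ENCCs against whole gut, and those of 1 unit in 24%, 4% and 4%; false calls were 4.69%, 8.97% and 1.96%. In the same simulation a single spread for both groups gave 78.98% and 82.19% false calls, and it was not the main setting. The simulation changed only a small part of the genes and drew the genes independently, unlike these data. Its recovery and false call rates therefore hold for that setting alone.

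The members and lists were chosen with earlier results of these data known. All members may be named, and of each other list at most the 2 called genes with the largest difference in each direction per comparison. The number of arrays limits the precision.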

Additional observations from a re-analysis of the deposited data

Results flagged for a closer look

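Of 152 groups of a member's scores, 9 held a value far from the others by Dixon's criterion, where chance gives about 1 in 20 groups. In 3 of the 9 it was the untreated well of gut 3 in batch 2, the array that agreed worst with its own RNA in batch 1. There Flna scored -1.669, where the nearest other untreated array scored 0.693, Pdgfra scored 1.363 (nearest 0.345), and Kit scored -0.054 (nearest -1.394). With gut 3 taken from batch 1 alone, the same number of members, 12, passed for GDNF. In the GDNF-treated well of the same gut, Tpm1 scored -0.845 in batch 2, against -0.006 for the nearest.

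Among paired differences, GDNF-treated minus untreated well, Mylk stood at 2.867 in gut 1, where the nearest gut had 0.276. Lum stood at -3.230 in gut 6, against -0.945, and Ano1 at 2.188 in gut 4, against 0.333. Among whole guts, Dpt scored 1.094 in whole gut 4, against 1.561 for the nearest, and Thy1 scored -1.449 in whole gut 2, against -1.576.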

How the results depend on the processing

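For GDNF, 12 members passed, 9 lower and 3 higher. In batch 1 alone 7 passed, 5 of them lower. In batch 2 alone (4 pairs) limma called 0 members, 0 higher and 0 lower, and 0 of all genes, with 7 of 38 members and 3516 genes at an unadjusted p under 0.05; there Flna turned to 0.118 (adjusted p = 0.931). Leaving out 1 gut at a time gave 7 to 14 members called, 5 to 12 lower; the 7 came without gut 2, gut 3 or gut 6. Without the replicate block, in an unpaired fit over all ENCC arrays, 9 passed, and the calls for Tpm1, Prrx1 and Vim ended. It changed no other call of a member. This fit drops the pairing of wells and also averages each RNA over all its arrays, among them the treated batch 1 array of gut 2. The parts of these changes in the lost calls were not tested. At a hybridisation control difference of 0, chosen after seeing the data, 1 member was higher and 11 lower; with the covariate centred, as planned, 3 were higher and 10 lower. Outside batch 2 alone, Osr1, Pdgfrb, Twist1, Thy1 and Flna passed under every alternative run on single genes. Of these, Osr1, Twist1, Thy1 and Flna have 1 probe set each, so the choice of probe set could not change their scores. That of Flna correlated at -0.126 between batches.

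For untreated ENCCs against whole gut 21 members passed, and without 1 ENCC gut 13 to 22 (11 to 19 lower), the fewest without gut 9. For GDNF-treated ENCCs 28 passed, and 24 to 26 without 1 gut. In 13 of the 21 and 20 of the 28 the call held under every alternative run. With its most reproducible probe set Synpo2 turned to 0.849 (adjusted p = 0.0291) in untreated ENCCs. Over all genes, 1640 were higher and 2121 lower in untreated ENCCs, against 3598 and 4154 with 1 spread for both groups, 1019 and 1391 without gut 2, 1018 and 1383 without gut 8, and 964 and 1315 without gut 9. For GDNF-treated ENCCs the counts were 2916 and 2889, against 4558 and 4723 with 1 spread. The causes were not tested.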
